A study of Mus musculus with 6 samples.

Results

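The cytosolic translation initiation and elongation factors are the proteins that bring a ribosome to the start codon of an mRNA and then move it along the message. They were taken here as all genes of the deposited count table whose symbol begins with Eif and a digit from 1 to 6, or with Eef and 1 or 2, leaving out the eIF2 kinases (Eif2ak). That gave 60 of the 24421 genes in the table, of which 57 had enough counts to be tested. Their transcripts were compared between Tregs (regulatory T cells, which depend on the transcription factor Foxp3) with and without SREBP2, the transcription factor that switches on cholesterol synthesis and uptake genes.

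The cells came from mouse spleen and lymph nodes, and total RNA was sequenced after depletion of ribosomal RNA. Of the 6 libraries, 3 were labelled Srebp2WT (replicates 1, 3 and 5, genotype Srebp2WT/WT-Foxp3YFPCRE+/+) and 3 Srebp2cKO (replicates 6, 7 and 8, genotype Srebp2FL/FL-Foxp3YFPCRE+/-). Both genotypes carry the Foxp3-driven YFP-Cre, which acts in Foxp3-expressing cells, and the number of Cre alleles differs between them (+/+ against +/-), so effects of the floxed gene and of Cre dose cannot be told apart. The labels give no ages, sort gate or number of animals behind a library, and p-values therefore measure the spread between these libraries, which may be technical. In bulk RNA, a change in the cells that make up a sample and a change in RNA per cell cannot be told apart.

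Libraries held 13918321 to 17249898 counts. Srebf2, the gene for SREBP2, had 3043, 2980 and 2548 counts in Srebp2WT and 187, 197 and 183 in Srebp2cKO. All 7 Treg markers examined had counts in every library, with summed levels of 4511 to 4742 CPM (counts scaled to library size) in Srebp2WT and 4397 to 4599.7 CPM in Srebp2cKO. The summed levels of 7 B cell markers were 56.4 to 79.5 CPM in Srebp2WT and 25.8 to 34.5 CPM in Srebp2cKO, and those of 7 myeloid markers were 50.9 to 85.1 and 33.8 to 39.9 CPM. The 5 stromal markers, whose counts came almost wholly from Pecam1, summed to 168 to 181 and 217 to 231 CPM, and the 2 CD8 markers to 7.01 to 7.59 and 8.70 to 10.3 CPM. The 4 NK cell markers overlapped (4.52 to 5.72 and 3.88 to 7.55 CPM, Ncr1 at 0), as did the 6 erythroid and platelet markers (0.0681 to 0.257 and 0 to 0.696 CPM, with Hbb-bt, Ppbp and Pf4 at 0). The part of these markers in the results below was not tested.

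Initiation starts when eIF2 carries the initiator methionyl-tRNA to the small ribosomal subunit, helped by eIF1, eIF1A, eIF3 and eIF5. The eIF4 proteins bind the mRNA cap, unwind the leader and recruit this complex, and eIF5B joins the large subunit at the start codon. During elongation eEF1A delivers aminoacyl-tRNAs, the eEF1B subunits recharge eEF1A with GTP, and eEF2 moves the ribosome on by a codon. Many of these factors, like the ribosomal proteins, are encoded by TOP mRNAs, which begin with a C followed by a run of pyrimidines and whose translation depends on mTORC1. In T cells, activation raises translation and the demand for these factors.

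The bases around annotated transcription starts were searched for a pyrimidine run of the kind that the TOP label refers to. The starts used in these cells were not measured, and a run in promoter DNA need not begin the mRNA. Promoter entries were found in RefSeq (build GRCm38.p6) for 46 of the 60 genes, including 3 of the 4 genes called below. Each line gives 60 bases, 40 before and 20 from the annotated start on, 5′ to 3′ on the gene's strand. Capitals mark a C followed by at least 4 bases of C or T. The first C of the run had to lie within 10 bases of that start. Longer runs that began earlier and crossed the start, as in Eif2b5, were not marked or counted. Neither were runs that began later, as near the ends of the Eef1e1 and Eef2 windows. Eef1a1, Eef1b2 and Eef1e1 are shown because they rose in Srebp2cKO, Eif4b and Eef2 because their calls depended on the treatment of GC content, and Eif3f as a textbook TOP gene that was not called.
Eef1a1, chr9:78481705-78481764, minus strand: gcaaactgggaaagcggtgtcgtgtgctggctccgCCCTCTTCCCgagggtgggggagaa
Eef1b2, chr1:63176791-63176850, plus strand: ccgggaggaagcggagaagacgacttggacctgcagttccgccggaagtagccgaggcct
Eef1e1, chr13:38659009-38659068, minus strand: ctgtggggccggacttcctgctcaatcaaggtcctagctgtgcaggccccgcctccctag
Eif4b, chr15:102073733-102073792, plus strand: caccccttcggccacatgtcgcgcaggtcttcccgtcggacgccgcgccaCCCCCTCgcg
Eef2, chr10:81176591-81176650, plus strand: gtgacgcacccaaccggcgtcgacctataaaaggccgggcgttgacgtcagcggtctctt
Eif3f, chr7:108934375-108934434, plus strand: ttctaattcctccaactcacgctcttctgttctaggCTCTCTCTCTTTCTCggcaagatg
Of these 6 windows, those of Eef1a1, Eif4b and Eif3f held such a run near the annotated start. A run under this rule was found in 12 of the 46 matched genes (26.1%) and in 32.6% of all 27025 genes with an entry. By this rule, which leaves out runs that began earlier or later, the share among the translation factors was not above that of all genes. Shares with a wider limit were not examined. The classical sterol response element of the LDL receptor promoter, searched on either strand with no mismatch, was found in 0 of the 46 and in 0.0999% of all genes over the full 300 bases. The E-box CACGTG, a palindrome bound by Myc family and related proteins, was found in 12 of the 46 (26.1%), Eef2, Eif4a1, Eif4e and Eif4g1 among them, and in 8.09% of all genes. A match or its absence describes only these letters in these windows.

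Across the whole group, transcripts of translation factors were more often higher than lower in Srebp2cKO Tregs, by small amounts. Levels are CPM scaled with TMM factors, and fold changes are Srebp2cKO over Srebp2WT on the log2 scale, from the quasi-likelihood F test of edgeR with Benjamini-Hochberg adjustment over all 11932 tested genes. Genes passed, and are called, where the false discovery rate was under 0.05. The median log2 fold change of the 57 tested factors was 0.15 (range -0.69 to 0.54), against -0.00 over all tested genes. Of the 57, 4 rose and 0 fell. The 4 were Eef1a1, Eef1b2, Eef1e1 and Eif3e, a share of 7.02%, beside 2.37% higher, 4.24% lower and 6.61% in either direction over all tested genes. At an unadjusted p under 0.05 there were 22 higher and 1 lower, beside 14.8% and 14.3% of all genes. The log2 fold change was positive for 42 of 57 (73.7%), against 49.98% of all genes.

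The libraries of the genotypes did not overlap for 16 higher factors (28.1%, against 16.0% of all genes) and for 2 lower ones (3.51%, against 15.5%). The 2 lower ones, named after their values were seen, were Eif2b2 and Eif4ebp1. The median deviation of the factors from their mean over the 6 libraries was -0.11, -0.07 and -0.01 in Srebp2WT replicates 1, 3 and 5 and 0.01, 0.10 and 0.07 in Srebp2cKO replicates 6, 7 and 8. Srebp2WT replicate 5 and Srebp2cKO replicate 6 thus lay close to each other. Srebp2cKO replicate 6 fell within the Srebp2WT range for 29 of 57 factors (50.9%, against 43.3% of all genes), replicate 7 for 12 (21.1%, against 23.3%) and replicate 8 for 13 (22.8%, against 33.7%).

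**Figure D1:**
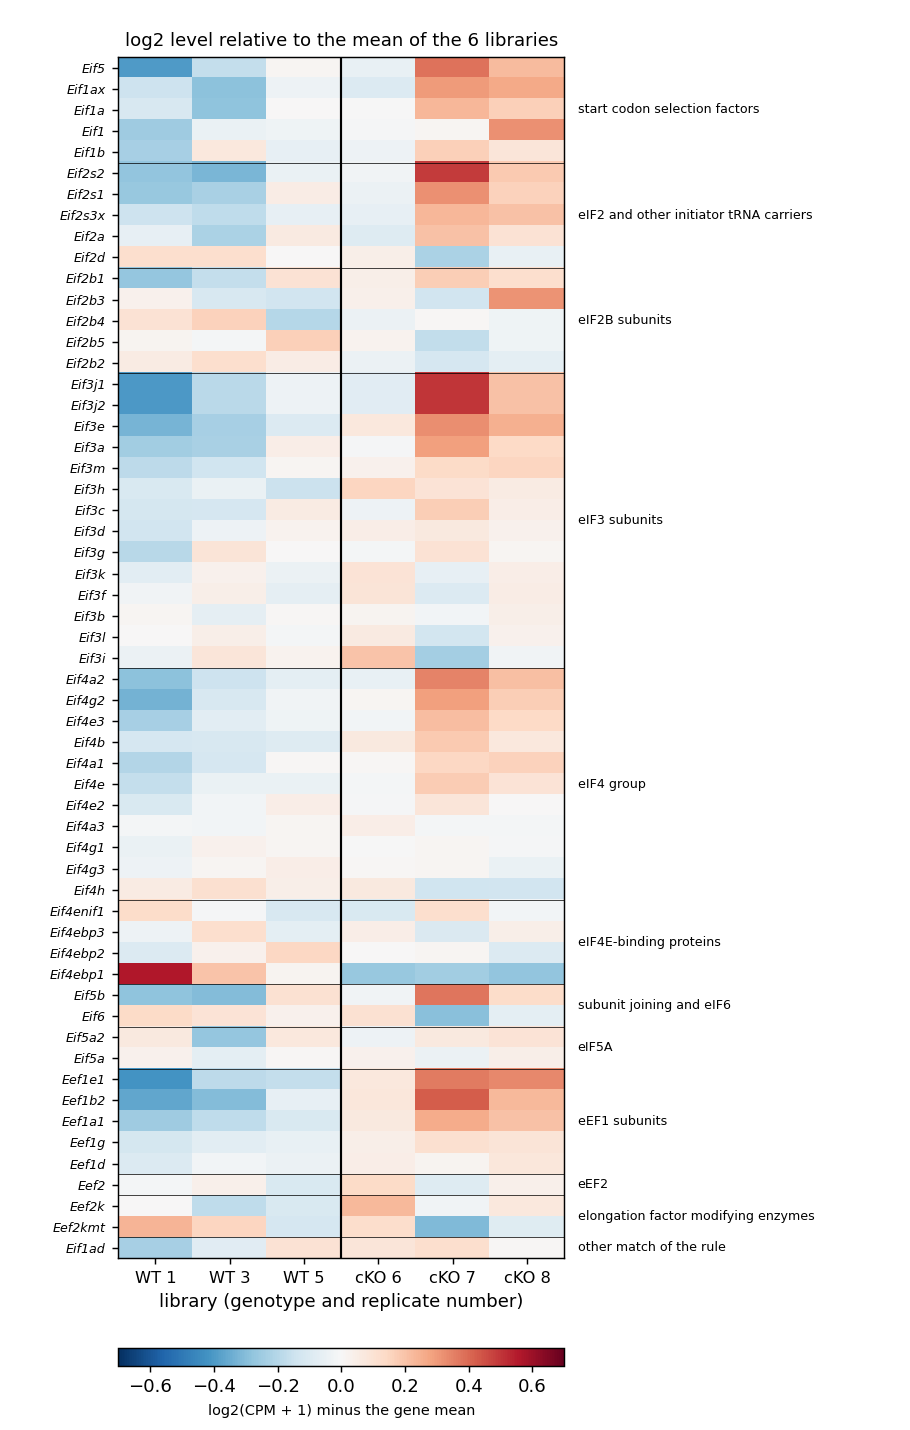
Colour shows the log2(CPM + 1) of each of the 57 tested translation factors (lines, grouped by role) in each of the 6 libraries (columns) minus the gene's mean over the libraries. Most lines are blue in Srebp2WT replicates 1 and 3 and red in Srebp2cKO replicates 7 and 8, while Srebp2WT replicate 5 and Srebp2cKO replicate 6 are pale, and Eif4ebp1 runs the other way.

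The number of calls rested on single libraries. Leaving out replicate 1 or 3 of Srebp2WT, or replicate 7 or 8 of Srebp2cKO, brought the edgeR calls among the factors to 0, and 29 to 96 genes of the whole table were then called higher in place of 283. Without Srebp2WT replicate 5, 6 factors were called, beside 3.48% of all genes, and without Srebp2cKO replicate 6, 13 were, beside 5.80% of all genes. The median of the factors stayed between 0.11 and 0.18 in these 6 fits. DESeq2 called 11 factors higher, beside 4.98% of all genes, and limma-voom called the same 4 as edgeR. The 13 and the 11 each include both Eif3j1 and Eif3j2, whose counts were the same in every library.

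Translation factors took a larger part of all counts in Srebp2cKO. Their summed share was 1.79%, 1.83% and 1.90% for Srebp2WT, against 2.00%, 2.22% and 2.17% for Srebp2cKO, with no overlap. The means were 1.84% ± 0.0558 and 2.13% ± 0.113 (SD, n = 3), a difference of 0.296 percentage points, while exact 95% binomial intervals were within 0.00737 points of each value and cover counting error only. Eef1a1 by itself took 0.711%, 0.728% and 0.766% in Srebp2WT and 0.842%, 0.975% and 0.940% in Srebp2cKO. Without Eef1a1, the share was 1.10% ± 0.0279 and 1.21% ± 0.0445. With the 50 most abundant genes of the table left out of both sums, Eef1a1, Eef2 and Eif4g2 among them, the difference was 0.0899 percentage points.

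Fold changes of the factors followed the GC content of their transcripts. The slope of log2 level on GC differed between libraries, at 0.15, 0.18 and 0.02 log2 units per 10 percentage points of GC in Srebp2WT replicates 1, 3 and 5 and 0.01, -0.25 and -0.12 in Srebp2cKO replicates 6, 7 and 8. Across the 57 factors the Spearman correlation of log2 fold change with GC was -0.74, and across 11459 tested genes with a GC value it was -0.51. Genes within a set are not independent and share these 6 libraries. The 18 factors under 45% GC had positive values in 18 cases and a median of 0.32, against 0.19 for all genes in that class. The 18 factors of 45 to 52% had a median of 0.18 (all genes 0.04), and the 21 above 52% had a median of -0.00 (all genes -0.16). In each class the median of the factors stood above that of all genes.

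Below, a GC-removed value is a log2 fold change from the same fit after the GC trend of each library was taken out. In that fit, 8 factors were called higher and 0 lower, beside 3.04% higher and 3.38% lower over all genes. The 4 earlier calls were kept, and Eef1d (log2 fold change 0.29), Eef2 (0.28), Eif3h (0.28) and Eif4b (0.27) were added. Their adjusted p in this edgeR fit was 0.0378, 0.0387, 0.0277 and 0.0441. The correlation with GC across the 57 factors was then -0.05, and their median was 0.17 against 0.05 for all genes. Values of AT-rich factors became smaller, among them Eif3e (0.44 to 0.25), Eif4a2 (0.34 to 0.15) and Eif2s1 (0.30 to 0.13). Those of Eef1a1 (0.36 to 0.35), Eef1b2 (0.49 to 0.45) and Eef1e1 (0.54 to 0.46) moved less. With the GC of the longest transcript of any kind in place of the longest coding one, 6 factors were called, and Eef1d and Eif3e were not. With the GC trend removed and 1 library left out, 0 to 3 factors were called.

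**Figure D2:**
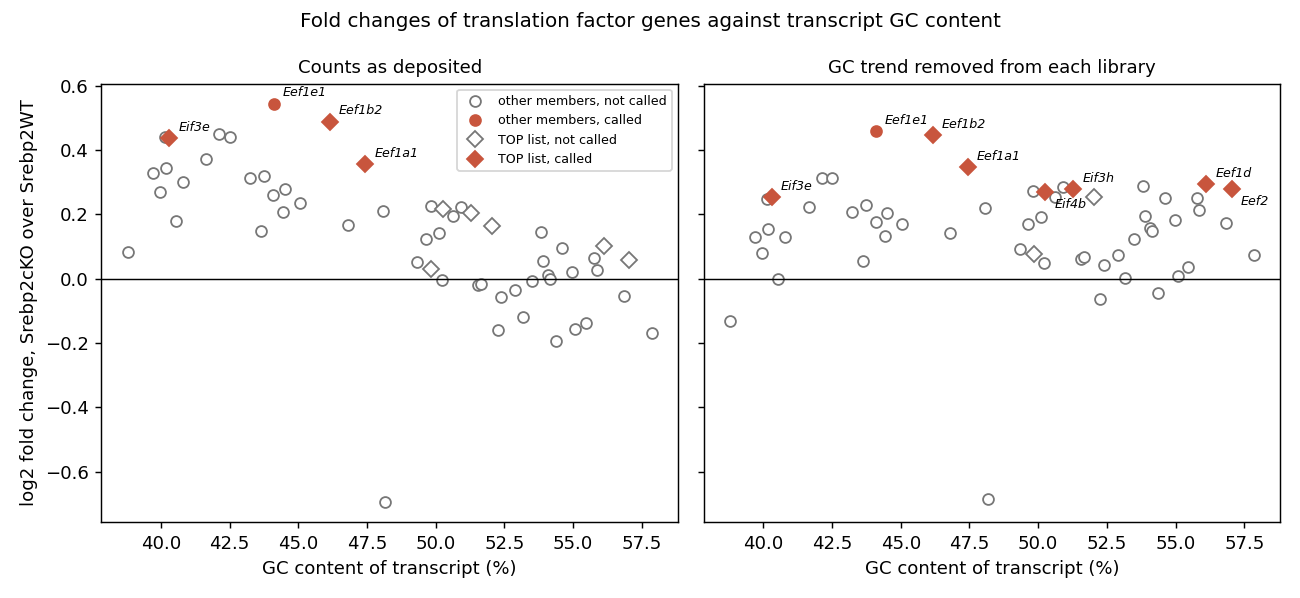
Log2 fold change (Srebp2cKO over Srebp2WT) of the 57 tested translation factors against the GC percentage of their longest coding transcript, before (left) and after (right) the GC trend of each library was removed; diamonds are 9 genes that textbooks list as TOP mRNAs, filled red those called. On the left the values fall with GC (Spearman -0.74), and on the right they do not (-0.05) and 7 of 9 diamonds are called. With GC from the longest transcript of any kind, Eef1d and Eif3e are not called. With 1 library left out of the fit on the right, 0 to 3 of the 57 factors are called.

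**Figure D3:**
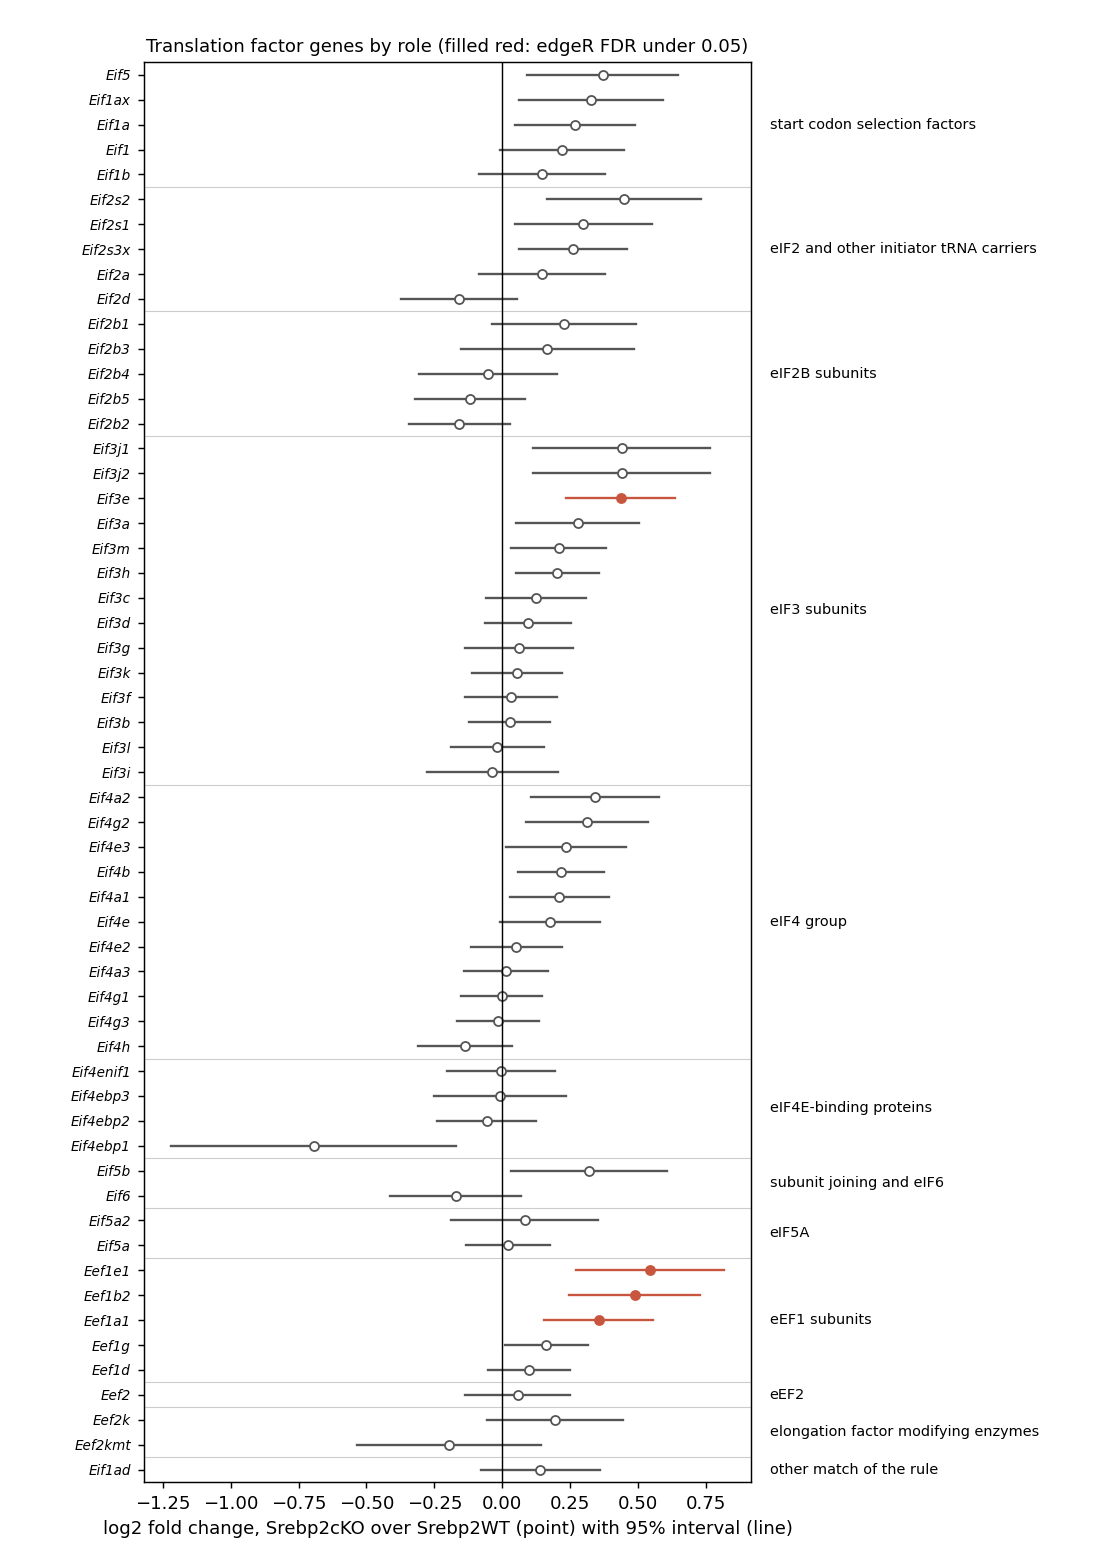
Points are log2 fold changes (Srebp2cKO over Srebp2WT) of the 57 tested translation factors with 95% intervals as lines, grouped by role, and filled red marks the 4 genes called by edgeR. All 5 genes grouped as eEF1 subunits, Eef1e1 among them, and all 5 start codon selection factors lie to the right of 0. All 4 genes of the eIF4E-binding group lie to its left on these counts. With the GC trend removed, 3 of those 4 are above 0, in a fit where the median of all tested genes is 0.05.

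The genes grouped here as eEF1 subunits, whose symbols begin with Eef1, held 3 of the 4 calls. The group takes in Eef1e1, whose product sits in the multi-tRNA synthetase complex. Of 6 listed, 5 were tested (median log2 fold change 0.36, GC-removed 0.35). In all 5 every Srebp2cKO library was above every Srebp2WT library, as in 16.0% of all genes. Eef1a1 (chromosome 9, 78478449 to 78489151, GRCm38) encodes eEF1A1, the GTPase that carries aminoacyl-tRNA to the ribosome. Its levels were 6923, 7273 and 7614 CPM in Srebp2WT and 8606, 9836 and 9457 CPM in Srebp2cKO. The lowest Srebp2cKO library, replicate 6, stood above the highest Srebp2WT library, replicate 5. Eef1a1 rose by a log2 fold change of 0.36 (1.28-fold, SE 0.09, 95% interval 0.15 to 0.56, edgeR adjusted p = 0.0458).

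Eef1b2 (chromosome 1, 63176825 to 63180486) encodes eEF1B alpha, a guanine nucleotide exchange subunit that recharges eEF1A. Its levels were 368, 384 and 456 CPM in Srebp2WT and 501, 636 and 557 CPM in Srebp2cKO, again with no overlap and with replicate 7 highest. Eef1b2 rose by a log2 fold change of 0.49 (1.40-fold, SE 0.11, 95% interval 0.25 to 0.73, edgeR adjusted p = 0.0292). Eef1e1 (chromosome 13, 38644207 to 38659058) encodes a protein related to the eEF1B subunits that sits in the multi-tRNA synthetase complex. Its levels were 15.04, 17.8 and 18.1 CPM in Srebp2WT and 21.5, 26.6 and 26.1 CPM in Srebp2cKO. Here too the lowest Srebp2cKO library lay above the highest Srebp2WT library. Eef1e1 rose by a log2 fold change of 0.54 (1.46-fold, SE 0.12, 95% interval 0.27 to 0.82, edgeR adjusted p = 0.0310), the largest value among the 57 factors.

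The remaining exchange complex subunits had smaller differences. Eef1g, the structural gamma subunit of the exchange complex, stood at 419.7, 434 and 441 CPM in Srebp2WT and 469, 494 and 487 CPM in Srebp2cKO (log2 fold change 0.16, edgeR adjusted p = 0.151). Eef1d, the delta exchange subunit, stood at 124, 131 and 129 CPM and at 137, 135 and 141 CPM (0.10, edgeR adjusted p = 0.349). Both had separate ranges and neither passed the test, while the GC-removed values were 0.26 and 0.29 and Eef1d was called there. Eef1a2, the second eEF1A gene, best known from neurons and muscle, had 0 counts in every library, and the floor of 3 counts corresponds to 0.174 to 0.216 CPM.

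The counts of some of these genes could include reads of near-identical copies, because the counting tool and its handling of multiply mapped reads were not given in the sources used here. Of the 50-base words in the longest Eef1a1 transcript, 60.6% also occurred in 21 other genes, and 64.3% of those of Eef1g occurred elsewhere. The share was 22.0% for Eif3e, 5.98% for Eef1b2 and 0 for Eef1e1. Eef1b2 also overlaps Ndufs1 on the opposite strand and hosts small nucleolar RNAs, whose reads could enter its count in a total RNA library.

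**Figure D4:**
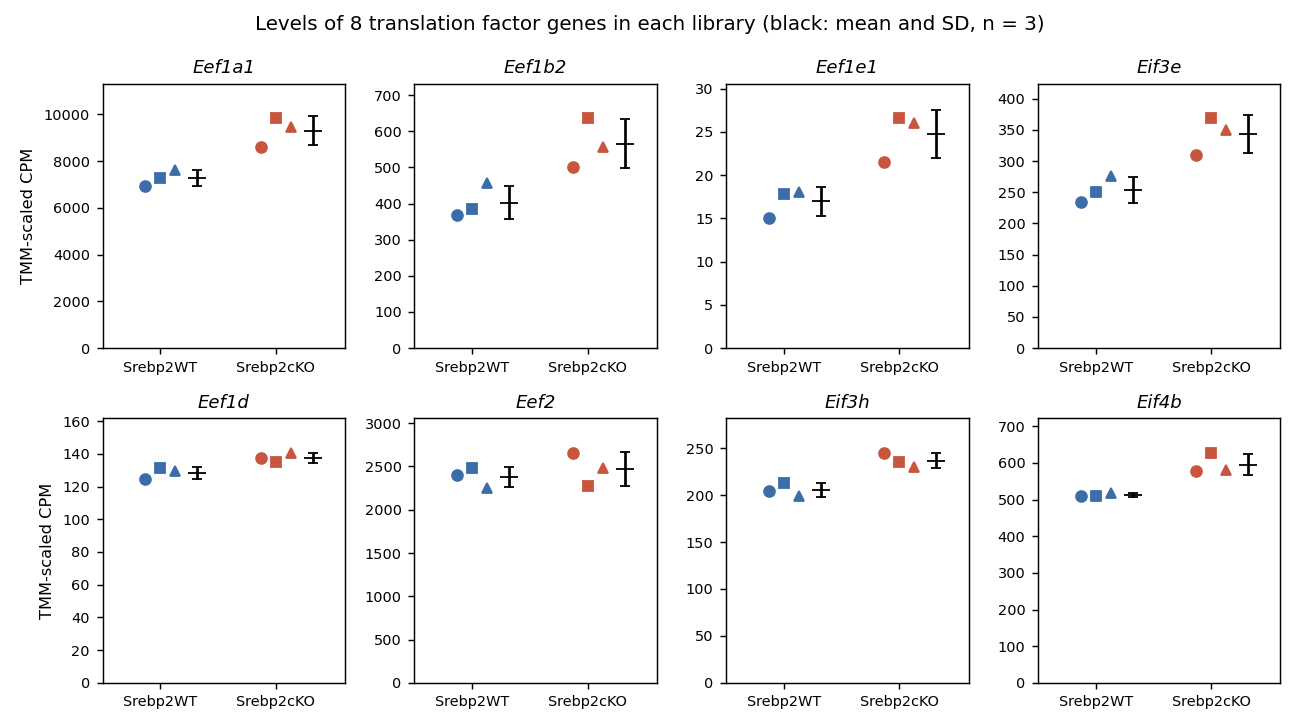
TMM-scaled CPM (vertical axes, from 0) of 8 translation factor genes in each library; circles, squares and triangles are replicates 1, 3 and 5 of Srebp2WT (blue) and 6, 7 and 8 of Srebp2cKO (red), with the mean and SD in black (n = 3). The genotypes are separate for all genes shown except Eef2, whose Srebp2cKO replicate 7 lies within the Srebp2WT range.

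Eef2, the translocase, was the second most abundant factor and overlapped between the genotypes. Its levels were 2398, 2477 and 2247 CPM in Srebp2WT and 2657, 2270.2 and 2482 CPM in Srebp2cKO (log2 fold change 0.06, SE 0.09, 95% interval -0.14 to 0.25, edgeR adjusted p = 0.692). The GC-removed value was 0.28 (SE 0.07, edgeR adjusted p = 0.0387), above the upper bound of that interval, so the call for Eef2 rested on the treatment of GC content. Eef2k, the kinase that inhibits eEF2, stood at 17.4 ± 1.16 and 19.98 ± 1.84 CPM (log2 fold change 0.19), and Eef2kmt, its lysine methyltransferase, at 15.1 ± 2.03 and 13.3 ± 2.13 CPM (-0.19). Their adjusted p in edgeR was 0.277 and 0.421. The eIF5A genes, whose hypusine-bearing products help ribosomes through stretches such as proline runs, were not called either. Eif5a stood at 271 ± 9.44 and 275 ± 8.77 CPM (0.02) and Eif5a2 at 19.8 ± 2.71 and 20.9 ± 1.02 CPM (0.08), and the GC-removed values were 0.18 and -0.13.

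Of the 14 eIF3 genes, Eif3e rose, 12 had positive log2 fold changes and the median was 0.11 (GC-removed 0.21). The eIF3 complex is the scaffold that holds the initiation complex on the small subunit. Eif3e (chromosome 15, 43250058 to 43282719) encodes a core subunit and stood at 235, 250.3 and 276 CPM in Srebp2WT and 310.0, 369 and 351 CPM in Srebp2cKO, with no overlap. Eif3e rose by a log2 fold change of 0.44 (1.35-fold, SE 0.09, 95% interval 0.24 to 0.64, edgeR adjusted p = 0.0237), the smallest adjusted p of any factor. Its GC-removed value was 0.25, and with GC taken from the longest transcript of any kind it was 0.18 and not called (edgeR adjusted p = 0.113). Eif3h, a neighbour of Eif3e in the complex, stood at 204, 213 and 199 CPM and at 245, 235 and 229.8 CPM (0.20, edgeR adjusted p = 0.0951). Eif3a, the largest subunit and the most abundant of the 14 by CPM, stood at 363, 367 and 442 CPM and at 427, 522 and 473 CPM (0.28, edgeR adjusted p = 0.111). The genotypes did not overlap for Eif3h and overlapped for Eif3a.

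The remaining eIF3 values differed between subunits of the same complex, from -0.04 for Eif3i to 0.44 for Eif3j1. Eif3b, Eif3f, Eif3g, Eif3k and Eif3l lay between -0.02 and 0.06, and their GC-removed values between 0.06 and 0.25. Eif3j1 and Eif3j2, genes for a loosely bound subunit, had the same count in all 6 libraries (31.8, 37.1 and 41.4 CPM in Srebp2WT and 40.03, 60.3 and 49.1 CPM in Srebp2cKO), so they give 1 measurement and the 57 tested genes give 56 distinct ones. Of the 50-base words of Eif3j2, 90.8% occur in Eif3j1. Of 11371 genes with at least 100 counts, 31 shared all of their counts with another gene in this way.

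Start codon selection factors had positive log2 fold changes in 5 of 5 tested (median 0.27, GC-removed 0.22), and edgeR called 0. At an unadjusted p under 0.05 there were 3 higher, beside 14.8% of all genes. DESeq2 called 1, beside 4.98% of all genes, and limma-voom called 0. Eif5, the GTPase-activating protein of eIF2, was the most abundant and had the largest difference, at 294, 344 and 390.4 CPM in Srebp2WT and 373, 505 and 452 CPM in Srebp2cKO (0.37, edgeR adjusted p = 0.0930). Srebp2cKO replicate 6 lay below Srebp2WT replicate 5, so the groups overlapped. Eif1, which guards against wrong start codons, stood at 250.3 ± 20.7 and 292 ± 38.6 CPM (0.22, edgeR adjusted p = 0.182). Eif1ax and Eif1a, the 2 genes for eIF1A, had log2 fold changes of 0.33 and 0.27, and the Eif1 copy Eif1b had 0.15. The GC-removed values were 0.22 for Eif5, 0.13 for Eif1ax, 0.08 for Eif1a and 0.29 for Eif1b.

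The 3 subunits of eIF2, which holds the initiator tRNA, had positive values. Eif2s2, the beta subunit, stood at 74.7, 72.4 and 87.7 CPM in Srebp2WT and 89.0, 128 and 103 CPM in Srebp2cKO, just separate (log2 fold change 0.45, SE 0.13, edgeR adjusted p = 0.0611). Eif2s1, the alpha subunit that stress kinases phosphorylate, stood at 72.9, 75.05 and 91.2 CPM and at 85.5, 110.1 and 98.5 CPM (0.30, edgeR adjusted p = 0.120). Eif2s3x, the X-linked gamma subunit, stood at 133 ± 5.86 and 159.7 ± 17.3 CPM (0.26, edgeR adjusted p = 0.0983). The alpha and gamma subunits overlapped between the genotypes, with replicate 6 of Srebp2cKO inside the Srebp2WT range. The Y-linked copy Eif2s3y had 0 counts in every library. Of the 5 tested carriers of initiator tRNA, including Eif2a and Eif2d, 0 were called in edgeR and in limma-voom. At an unadjusted p under 0.05, 3 were higher, beside 14.8% of all genes. DESeq2 called Eif2s2, where it called 4.98% of all genes higher. GC-removed values were 0.31 for Eif2s2, 0.13 for Eif2s1 and 0.17 for Eif2s3x.

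The 5 subunits of eIF2B, the exchange factor that reloads eIF2 with GTP, had values on both sides of 0 that depended on GC content. Their log2 fold changes ran from -0.16 for Eif2b2 to 0.23 for Eif2b1, with a median of -0.05 and 2 positive values. All 5 GC-removed values were positive (0.00 to 0.27) with a median of 0.14. Over all tested genes the median moved as well, from -0.00 to 0.05, and the GC-removed values of Eif2b2 and Eif2b5 lay below 0.05. None was called by edgeR, DESeq2 or limma-voom, and none had an unadjusted p under 0.05. Eif2b5, the catalytic subunit, stood at 47.2 ± 3.27 and 43.4 ± 3.04 CPM (-0.12). Eif2b2 stood at 32.5, 34.0 and 32.4 CPM in Srebp2WT and 30.3, 28.7 and 29.7 CPM in Srebp2cKO (edgeR adjusted p = 0.243), which was separate but close. Its GC-removed value was 0.01. The difference between the eIF2 and eIF2B genes was not tested.

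Of 11 tested genes of the eIF4 group, which binds and unwinds capped mRNA, 8 had positive log2 fold changes (median 0.18, GC-removed 0.15). The genotypes had no overlap for 5, all higher (45.5%, against 16.0% of all genes). edgeR and limma-voom called 0, and DESeq2 called 3 (Eif4a2, Eif4b and Eif4g2), beside 4.98% of all genes. At an unadjusted p under 0.05, 5 were higher, beside 14.8% of all genes. Eif4g2, a relative of the eIF4G scaffold that lacks the cap-binding partner's site, was the most abundant at 895, 1039 and 1103 CPM in Srebp2WT and 1133, 1373 and 1265 CPM in Srebp2cKO (0.31, edgeR adjusted p = 0.0845). Eif4a2, an RNA helicase, stood at 401, 443 and 468 CPM and at 472, 625 and 567 CPM (0.34, edgeR adjusted p = 0.0751). In both genes Srebp2cKO replicate 6 lay just above the highest Srebp2WT library. Eif4b, the cofactor that stimulates the helicase, stood at 509, 511 and 518 CPM and at 579, 627 and 580.3 CPM (0.22, 95% interval 0.06 to 0.37, edgeR adjusted p = 0.0857), with a wider gap between the genotypes than within Srebp2WT. The GC-removed values were 0.21 for Eif4g2, 0.15 for Eif4a2 and 0.27 for Eif4b, which was then called.

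Other genes of the group were not called by any of these tools. Eif4g1, the main scaffold, stood at 398 ± 11.2 and 398 ± 3.44 CPM (log2 fold change -0.00, 95% interval -0.15 to 0.15) and its relative Eif4g3 had a log2 fold change of -0.02. Eif4e, the cap-binding protein, stood at 62.8 ± 3.05 and 71.0 ± 4.85 CPM (0.18, edgeR adjusted p = 0.184), and its relatives Eif4e2 and Eif4e3 had 0.05 and 0.24. Eif4e1b, a relative known from germ cells, had 0 counts in every library. Eif4a1, the second helicase gene, stood at 332 ± 24.9 and 384 ± 22.7 CPM (0.21, edgeR adjusted p = 0.125). Eif4h, a cofactor related to Eif4b, stood at 170.2 ± 4.51 and 155 ± 12.9 CPM (-0.14, edgeR adjusted p = 0.271). The GC-removed values were 0.15 for Eif4g1, 0.07 for Eif4g3, 0.00 for Eif4e, 0.09 for Eif4e2, 0.17 for Eif4e3, 0.22 for Eif4a1 and 0.04 for Eif4h.

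The eIF4E-binding group holds Eif4ebp1, Eif4ebp2 and Eif4ebp3, whose products block eIF4E until mTORC1 phosphorylates them, and Eif4enif1, whose product carries eIF4E into the nucleus and to sites of mRNA decay. Log2 fold changes were negative in 4 of 4 on these counts, but 3 lay between -0.06 and -0.01. With the GC trend removed these 3 were 0.04 for Eif4ebp2, 0.12 for Eif4ebp3 and 0.05 for Eif4enif1, and Eif4ebp1 was -0.68. The median of all tested genes in that fit was 0.05. Eif4ebp1 stood at 5.58, 4.12 and 3.52 CPM in Srebp2WT (89, 64 and 52 counts) and 2.72, 2.77 and 2.68 CPM in Srebp2cKO (37, 43 and 46 counts), with no overlap. The log2 fold change of -0.69 (95% interval -1.22 to -0.17, SE 0.24, edgeR adjusted p = 0.0944) was the lowest of the 57 and the only one with an unadjusted p under 0.05 on the lower side. Srebp2WT replicate 1 was the highest, and leaving out 1 library at a time gave values of -0.83 to -0.49. Eif4ebp2, the abundant member in these cells, stood at 133 ± 11.4 and 128 ± 5.44 CPM (-0.06). Of these 4 genes, edgeR, DESeq2 and limma-voom called 0.

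Among the late initiation factors, Eif5b, which joins the subunits, stood at 109, 108 and 143 CPM and at 131, 173 and 145 CPM (0.32, edgeR adjusted p = 0.137), and the groups overlapped. Eif6, which keeps the large subunit from joining too early, stood at 39.0 ± 1.47 and 34.7 ± 4.92 CPM (-0.17, edgeR adjusted p = 0.322; GC-removed 0.07). Eif1ad, a nuclear eIF1A-like protein that the symbol rule also takes in, had a log2 fold change of 0.14.

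Ratios of related genes within a library need no scaling between libraries, but the GC trend of a library enters them where the genes differ in GC. Of 9 pairs with at least 10 counts of each gene in every library, 4 had ratios that did not overlap between the genotypes, which gives an exact two-sided permutation p of 0.1 (0.225 after adjustment over the 9 pairs), the smallest that 3 libraries against 3 allow. Eif4b over Eif4h had log2 ratios of 1.59, 1.54 and 1.63 in Srebp2WT and 1.77, 2.09 and 1.97 in Srebp2cKO, a difference of 0.36. Eif4ebp1 over Eif4ebp2 differed by -0.61, Eif4e over Eif4e2 by 0.12 and Eif4e2 over Eif4e3 by -0.18. The helicase pair overlapped, with Eif4a1 over Eif4a2 at -0.38, -0.43 and -0.38 in Srebp2WT, against -0.40, -0.66 and -0.51 in Srebp2cKO (difference -0.12, exact permutation p = 0.2, adjusted 0.36). Eif1 over Eif1b, Eif1a over Eif1ax, Eif5a over Eif5a2 and Eif4g1 over Eif4g3 overlapped as well, with differences of 0.07, -0.05, -0.07 and 0.01. With the GC trend removed from both genes, Eif4b over Eif4h (0.23) and Eif4ebp1 over Eif4ebp2 (-0.70) remained separate, while Eif4e over Eif4e2 (-0.09) changed sign and overlapped and Eif4e2 over Eif4e3 (-0.08) overlapped. Eif4a1 over Eif4a2 (0.07) also changed sign and overlapped. Of the 50-base words of Eif4a1, 65.3% also occur in other genes, against 12.7% of those of Eif4a2. Reads of such copies could enter the ratio of these helicase genes. Eif5a over Eif5a2 (0.31) and Eif4g1 over Eif4g3 (0.08) did not overlap after the removal, each at the smallest exact permutation p of 0.1.

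**Figure D5:**
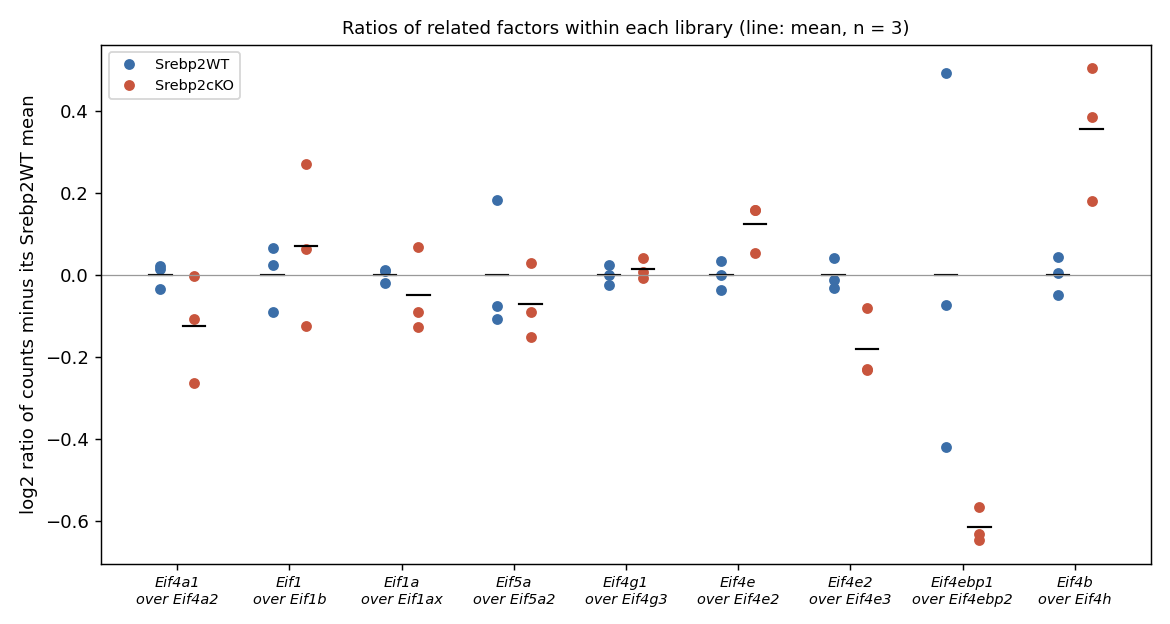
Each point is the log2 ratio of the counts of 2 related genes in 1 library minus the pair's Srebp2WT mean (blue Srebp2WT, red Srebp2cKO, black lines means of 3 libraries). Eif4b over Eif4h and Eif4ebp1 over Eif4ebp2 differ most between the genotypes, by 0.36 and -0.61, on counts with the GC trend left in.

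Most genes of the textbook TOP list were called with the GC trend removed and all 6 libraries used. That did not hold with 1 library left out. The list holds Eef1a1, Eef1b2, Eef1d, Eef1g, Eef2, Eif3e, Eif3f, Eif3h and Eif4b. On the counts as deposited, 3 of these 9 were called (33.3%), 9 of 9 had positive log2 fold changes and the median was 0.20. In 7 of 9 (77.8%) the genotypes had no overlap. Of the other 48 tested factors, 1 was called (2.08%), 33 had positive values (68.75%) and the median was 0.13. Of these 48, 9 were higher with no overlap (18.75%). Over all genes, 2.37% were called higher, 49.98% were positive and 16.0% were higher with no overlap. The shares of the 48 called and separate were close to these. With the GC trend removed, 7 of the 9 were called (median 0.28) and 1 of the 48 (median 0.16), beside 3.04% higher over all genes. With GC from the longest transcript of any kind, Eef1d and Eif3e of the list were not called. With the GC trend removed and 1 library left out, 0 to 3 of all 57 factors were called. The 80 tested ribosomal protein genes, the largest class of TOP mRNAs, had 25 higher calls (31.25%, against 2.37% of all genes). They had 1 lower call, beside 4.24% lower over all genes, and a median of 0.27. With the GC trend removed they had 46 higher and 0 lower calls, beside 3.04% higher and 3.38% lower over all genes. The difference between the lists was not tested.

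Levels were also taken per kilobase of the longest coding transcript. Genes are compared only roughly on this scale, because the isoforms present and the handling of multiply mapped reads were not known. Eef1a1 led in Srebp2WT at 4052 ± 193 CPM per kilobase, and Eef2 followed at 769 ± 37.8. Eef1g (232 ± 5.87) and Eef1b2 (208 ± 24.0) came next. Eif1, Eif5a and Eif4a1, at 189 ± 15.7, 189 ± 6.57 and 187 ± 14.0, did not differ beyond their spread. In Srebp2cKO, Eef1b2 stood at 291 ± 34.9 and Eef1g at 259 ± 6.87. The SDs of these neighbours overlapped in both genotypes. Within single libraries, Eef1g was above Eef1b2 in every Srebp2WT library, only just in replicate 5, and below it in every Srebp2cKO library. This order was not tested. Eef1a1 stood at 5184 ± 351 in Srebp2cKO.

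The 60 genes lay on 19 chromosomes, and 6 of them shared chromosome 15 with Srebf2 (82147181 to 82205379). The nearest, Eif3l, lay 3.05 Mb away and had a log2 fold change of -0.02, and Eif3d at 4.18 Mb had 0.09. Of the 6, Eif3e was the only one called on the counts as deposited, and it lay farthest from Srebf2, at 38.9 Mb. The other 3 called genes lay on chromosomes 1, 9 and 13.

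Of 47 tested genes of other translation control lists, 2 rose and 0 fell, a share of 4.26% higher beside 2.37% higher and 4.24% lower over all genes (median log2 fold change 0.10, GC-removed 0.09). Pdcd4, an inhibitor of the eIF4A helicase, stood at 508, 587 and 704 CPM in Srebp2WT and 826, 977 and 834 CPM in Srebp2cKO, with no overlap, and rose by 0.55 (SE 0.12, edgeR adjusted p = 0.0263). Etf1, the release factor that reads stop codons, stood at 165, 159 and 175 CPM and at 190.1, 236 and 210.3 CPM, also separate, and rose by 0.35 (SE 0.09, edgeR adjusted p = 0.0450). The 17 cap and poly(A) regulators had a median of 0.18 (GC-removed 0.12) and 9 members higher at an unadjusted p under 0.05, where 14.8% of all genes were. Larp4 (0.36), Ddx3x (0.37), Mcts1 (0.34) and Denr (0.33) were among these and did not pass (edgeR adjusted p = 0.0508, 0.0607, 0.0751 and 0.0763). Their GC-removed values were 0.14, 0.20, 0.15 and 0.21. Gspt1, the partner of Etf1, had 0.27 (edgeR adjusted p = 0.0716; GC-removed 0.20). With the GC trend removed, Pdcd4 (0.45) and Etf1 (0.27) were still called and Larp1, a regulator of TOP mRNAs, was added (0.18 to 0.32, edgeR adjusted p = 0.0299). Leaving out 1 library at a time, edgeR called Pdcd4 in 3 of 6 fits and Etf1 in 1 of 6.

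The eIF2 kinases and phosphatase subunits (6 tested), mitochondrial factors (9) and enzymes of hypusine and diphthamide synthesis (10) had 0 calls in edgeR, DESeq2 and limma-voom. At an unadjusted p under 0.05 these lists held 1 lower, 1 higher and 0 genes, beside 14.8% higher and 14.3% lower over all genes. Their median log2 fold changes were 0.05, 0.08 and 0.00.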

How the data were processed

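Per the labels' protocols, Treg RNA was extracted with an RNeasy kit, and 6 libraries were prepared with the KAPA HyperPrep kit and RiboErase. The authors deposited raw counts per gene symbol, as whole numbers. The submitters' processing notes name HISAT2 2.2.1, Cell Ranger and mm10 without their roles. The counting tool, annotation and strand setting were not given in the sources used here. Of 24421 genes, 8113 had 0 counts throughout.

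Genes passing filterByExpr (11932) were scaled by TMM and tested with edgeR 4.0.16 in R 4.3.3 (quasi-likelihood F test, no covariate, Benjamini-Hochberg, false discovery rate 0.05), after a test on simulated data. The common dispersion was 0.0112. Standard errors were the log2 fold change divided by the square root of F. Pair ratios used counts as deposited, and 0.5 was added to each count as an alternative. The GC trend was a loess (span 0.3) of log2 CPM deviations on the GC of the longest coding transcript (GENCODE M21, GRCm38), removed as offsets. Marker sums are CPM of total counts. Alternatives were other scalings and filters, DESeq2 1.42.0, limma-voom (limma 3.58.1), robust dispersion, abundant genes left out of scaling, a false discovery rate of 0.1 and leaving out each library. Leaving out libraries with the GC trend removed, GC from the longest transcript of any kind, the share of counts without each library and pair ratios with the GC trend removed were added after seeing the data.

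Members and lists were chosen with earlier results of these data known. Named members were those called, in each role the most abundant and the one with the largest change, the genes of the pairs, and up to 6 called genes per other list. Eef1d, Eef1g, Eif3b, Eif3d, Eif3f, Eif3g, Eif3h, Eif3i, Eif3k, Eif3l, Eif2a, Eif2b2, Eif2b3, Eif2b4, Eif2d, Eif4ebp3, Eif4enif1, Eif2s1, Eif6, Eef2kmt, Larp1, Larp4, Ddx3x, Mcts1, Denr and Gspt1 were named in addition, after their values were seen.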

Additional observations from a re-analysis of the deposited data

How the results depend on the processing

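No paired analysis was possible because the replicate numbers 1, 3 and 5 and 6, 7 and 8 are not shared between the genotypes. RLE and upper-quartile scaling, limma-voom, robust dispersion, a filter of 1 CPM in 3 libraries and leaving abundant genes out of scaling called the same 4 factors. Total-count scaling lost Eef1a1 (adjusted p = 0.0558), and with no filter Eif2s2 and Eif4a2 were added.

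Of all genes, 184 were called higher with total-count scaling, 613 with DESeq2, 473 with no filter and 861 at a false discovery rate of 0.1, where 1032 were lower. Leaving out 1 library gave 29 to 700 higher and 135 to 787 lower genes and 0 to 13 factors. DESeq2 called 11 factors, the GC removal 8 (0, 0, 3, 3, 0 and 2 when Srebp2WT replicates 1, 3 and 5 and Srebp2cKO replicates 6, 7 and 8 were also left out in turn), and a false discovery rate of 0.1 gave 13 higher and 1 lower, Eif4ebp1. The factors called by DESeq2 and at a false discovery rate of 0.1 include both Eif3j1 and Eif3j2, whose counts were the same in every library. The share of counts differed by 0.0899 points without the 50 most abundant genes. The cause of these shifts was not tested.

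Uncalled factors changed sign, Eif2b2 and Eif4ebp2 among them. Over all tested genes the median log2 fold change was -0.00 in the main fit and 0.05 in both GC-removed fits. With the GC trend removed, and with the longest transcript of any kind, the log2 fold change was 0.000621 and 0.0132 for Eif2b5, 0.00904 and 0.0223 for Eif2b2, 0.171 and 0.184 for Eif2b4, 0.0611 and 0.0382 for Eif3l, 0.0436 and 0.0563 for Eif4ebp2, 0.123 and 0.136 for Eif4ebp3, 0.0489 and 0.0613 for Eif4enif1, 0.147 and 0.160 for Eif4g1, 0.0672 and 0.0796 for Eif4g3, 0.0354 and 0.0496 for Eif4h, 0.0733 and 0.0826 for Eif6, and -0.131 and -0.113 for Eif5a2. The first removal gave 0.0735 for Eif3i and the second -0.0286 for Eif2a. DESeq2 gave 0.00335 for Eif4g1 and 0.000458 for Eif4enif1. Eif5a was -0.00258 with upper-quartile and -0.0134 with total-count scaling, which also gave -0.00646 for Eif3b and -0.00234 for Eif3f. Pair differences with the GC trend removed were 0.0674 for Eif4a1 over Eif4a2, 0.308 for Eif5a over Eif5a2, 0.0783 for Eif4g1 over Eif4g3, -0.0899 for Eif4e over Eif4e2, -0.0770 for Eif4e2 over Eif4e3 and 0.234 for Eif4b over Eif4h.

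Without 1 library, the range was -0.161 to 0.0205 for Eif2b4, -0.00454 to 0.0784 for Eif3f, -0.0106 to 0.127 for Eif3g, -0.151 to 0.0605 for Eif3i, -0.0541 to 0.0327 for Eif3l, -0.114 to 0.00447 for Eif4ebp2, -0.0471 to 0.0540 for Eif4ebp3, -0.0751 to 0.0631 for Eif4enif1, -0.0222 to 0.0144 for Eif4g1, -0.0360 to 0.00319 for Eif4g3, -0.00697 to 0.0426 for Eif5a and -0.0262 to 0.142 for Eif5a2. Eif4ebp1, at 37 to 89 counts, was the least deeply counted factor tested.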

Other observations

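Cytosolic aminoacyl-tRNA synthetases, the enzymes that load tRNAs with the amino acids that eEF1A delivers, were examined beside the elongation factors. Of 20 tested, 0 were called by edgeR and by limma-voom and 1 by DESeq2, beside 4.98% of all genes. At an unadjusted p under 0.05, 5 were higher and 0 lower, beside 14.8% and 14.3% of all genes. Log2 fold changes were positive for 15. Their median was 0.07, with a range of -0.29 to 0.33, and 0.15 with the GC trend removed, where 0 were called. In the same libraries the 5 genes grouped as eEF1 subunits had medians of 0.36 and 0.35. They include Eef1e1, whose product sits in the multi-tRNA synthetase complex, and the difference between the lists was not tested.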
